A study of Mus musculus with 19 samples.

Results

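The choroid plexus is the secretory tissue inside the brain ventricles, and 10 genes used as its markers were followed in RNA from mouse hippocampus. The genes were Ttr, Kl, Folr1, Clic6, Kcne2, Aqp1, Slc4a5, Otx2, Sostdc1 and Tmem72, matched by symbol through the Ensembl gene IDs of the 20655 genes in the deposited count table, and all 10 were found. All 10 passed the filter on low counts, which left 18204 genes for testing.

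The choroid plexus hangs in the brain ventricles. Its epithelium makes cerebrospinal fluid by moving ions, bicarbonate and water from blood to ventricle, and secretes carrier and signalling proteins into that fluid. A lateral ventricle lies along the hippocampus, next to the tissue dissected here. In bulk RNA, fewer cells of a type and less RNA per cell cannot be told apart.

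Total RNA came from the left hippocampus of 19 perfused mice aged 4 months, with 1 library per animal. All animals were hemizygous for 5xFAD, a transgenic model of amyloid deposition driven by the neuronal Thy1 promoter. Of these, 5 females and 5 males carried 5xFAD alone (label 5xFADHEMI), and 4 females and 5 males were also homozygous for a clusterin knock-in (label 5xFADHEMI:CLUh2kbKIHO, here CLU-KI). Every group therefore carries the transgenes, animals without them are not analysed here, and the sequence that the knock-in changes is not given in the sources used here. Libraries are named by the number in their title, such as CLU-KI female 4 or 5xFAD male 10. The labels give no litter, date or batch, and the animal numbers in the titles form a separate run for each genotype, so cohort and genotype cannot be told apart. In CLU-KI animals the animal numbers of all females also come before those of all males, so sex and number run cannot be told apart there. In 5xFAD animals the animal numbers of the sexes interleave. The title numbers and library names place all females before all males in both genotypes, so sex and library order cannot be told apart in either.

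Depth ran from 17278276 to 25200966 counts per library. The hippocampal label was checked on 8 neuronal markers, and all were detected in every library, for example Prox1 of dentate granule cells at 56.2 to 135 CPM and Wfs1 of CA1 pyramidal cells at 85.9 to 231 CPM (CPM, counts scaled to a common library size with TMM factors). Clu, the gene targeted by the knock-in, stood at 983 ± 139 CPM in 5xFAD females (SD, n = 5), 976 ± 115 CPM in 5xFAD males (SD, n = 5), 1204 ± 187 CPM in CLU-KI females (SD, n = 4) and 962 ± 181 CPM in CLU-KI males (SD, n = 5). The genotype effect on Clu did not pass (log2 change 0.13, edgeR adjusted p = 0.664). Whether reads from the knock-in allele are counted under Clu was not tested.

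Some libraries were high or low on all 10 genes at once. CLU-KI female 4 was the highest of 19 libraries for 10 of 10 genes. CLU-KI male 8 was the lowest for 6 genes, 5xFAD male 7 for 3 and 5xFAD male 8 for 1. The mean level of the 10 genes ran from 0.40 log2 CPM in CLU-KI male 8 to 7.27 in CLU-KI female 4. Values that moved by over 1.5 times without a library are given beside the result, for the genes it names.

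The secreted proteins come first. Ttr encodes transthyretin, the thyroid hormone and retinol-binding protein carrier that choroid plexus epithelium secretes in bulk, and which is also known to bind amyloid-beta. In 5xFAD females Ttr stood at 574, 4786, 3753, 2599.5 and 3305 CPM in libraries 1 to 5. In 5xFAD males 6 to 10 it stood at 1021, 37.3, 229, 657 and 3213 CPM. In CLU-KI females 1, 2, 4 and 5 it stood at 4058, 3095, 10528 and 3132 CPM, and in CLU-KI males 6 to 10 at 90.8, 2077, 10.6, 2261 and 3053 CPM. All 4 CLU-KI females lay above all 5 CLU-KI males, the closest pair being 3095 and 3053 CPM. The other groups overlapped, with 5xFAD female 1 low and 5xFAD male 10 high for their groups.

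The span of Ttr was wide. It took 0.999% of all counts in CLU-KI female 4 and 0.00104% in CLU-KI male 8, a 996-fold range in CPM. The values filled the range, and the largest gap between neighbouring libraries, 1.81 log2 units, separated the lowest library from the next. By its mean over libraries Ttr ranked 61 of 18204 genes. Per length of exon, its median was 2786.5 CPM per kb in 5xFAD females, 554 in 5xFAD males, 3031 in CLU-KI females and 1751.5 in CLU-KI males. No other member had a group median above 25.6 CPM per kb, the value of Clic6 in CLU-KI females.

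**Figure D1:**
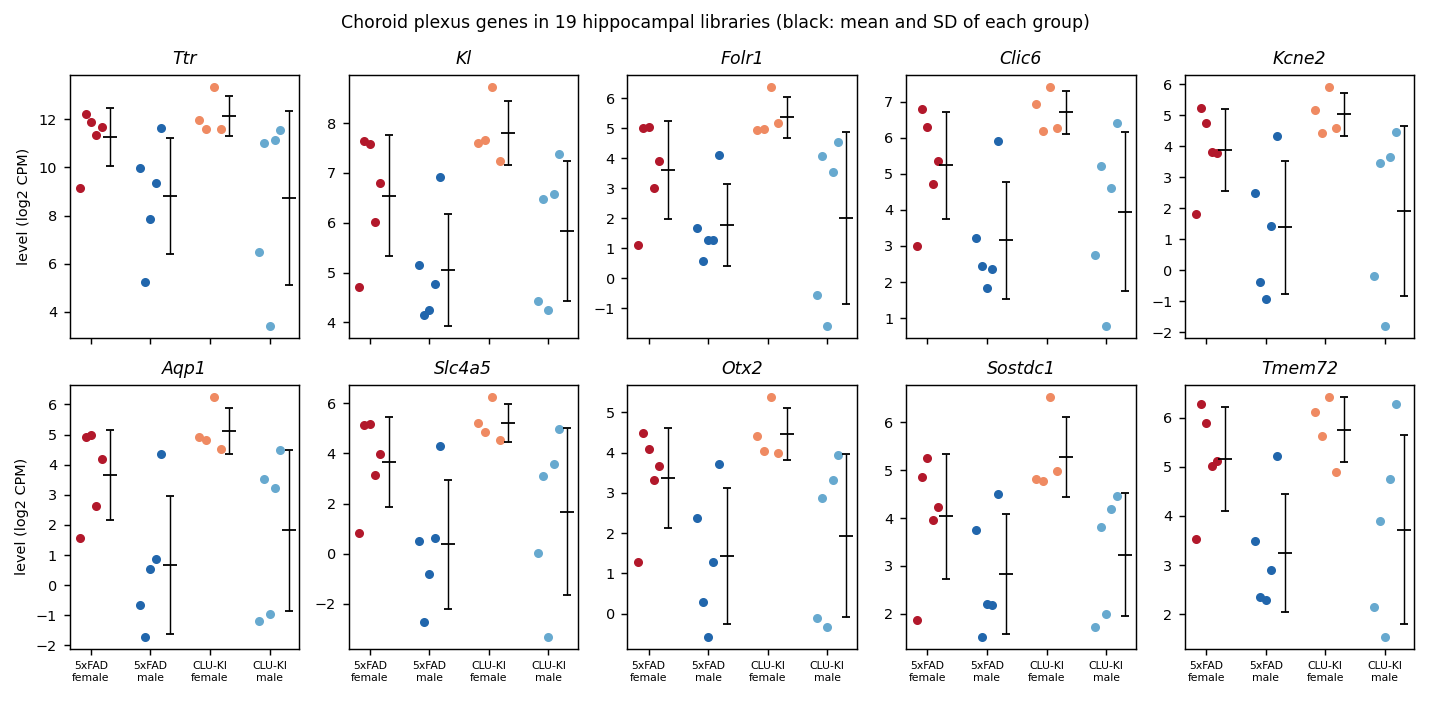
Level of each of the 10 choroid plexus genes (vertical axis, log2 CPM, a separate scale per gene) in each library, by genotype and sex. Each point is 1 library, and black marks give the mean and SD of the group (n = 5, 5, 4 and 5). All 4 CLU-KI females lie above the mean of the 19 libraries for every gene, while each other group has libraries on both sides of it.

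Kl encodes alpha-Klotho, a co-receptor for fibroblast growth factor 23 that is also shed into cerebrospinal fluid. Its values were 26.0, 199, 191, 64.7 and 111 CPM in 5xFAD females 1 to 5 and 35.4, 17.7, 18.98, 27.1 and 121 CPM in 5xFAD males 6 to 10. They were 193, 203, 426 and 151 CPM in CLU-KI females 1, 2, 4 and 5, and 21.4, 89.3, 18.9, 95.8 and 167 CPM in CLU-KI males 6 to 10. The range was 24.1-fold, the narrowest of the 10 genes. Kl levelled off where Ttr was low. In the 4 libraries with least Ttr, which held 10.6, 37.3, 90.8 and 229 CPM of it, Kl stood at 18.9, 17.7, 21.4 and 18.98 CPM.

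Sostdc1 encodes a secreted antagonist of BMP and Wnt signalling. It had medians of 18.6 CPM in 5xFAD females (range 3.56 to 38.1), 4.48 in 5xFAD males (2.76 to 22.7), 29.7 in CLU-KI females (27.3 to 92.5) and 13.9 in CLU-KI males (3.19 to 22.0). The 4 CLU-KI females all lay above the highest CLU-KI male. Like Kl it levelled off, with 3.88, 2.76, 3.19 and 4.48 CPM in the same 4 libraries low in Ttr. Otx2, at 0.693, 1.13, 0.822 and 0.574 CPM, and Tmem72, at 2.82, 4.96, 4.35 and 4.80 CPM, also did not rise steadily with Ttr there.

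The receptor and transport genes are those that carry solutes between blood and ventricle. Folr1 encodes folate receptor alpha, which takes folate across the epithelium into cerebrospinal fluid. It stood at 2.08, 32.1, 33.1, 7.93 and 14.8 CPM in 5xFAD females 1 to 5 and at 3.10, 1.38, 2.35, 2.30 and 17.2 CPM in 5xFAD males 6 to 10. CLU-KI females 1, 2, 4 and 5 held 30.5, 31.8, 84.2 and 35.9 CPM, and CLU-KI males 6 to 10 held 0.580, 16.9, 0.231, 11.5 and 23.5 CPM. The range was 365-fold, down to 5 counts in CLU-KI male 8. Folr1 overlaps Anapc15 on the opposite strand, and the labels do not say whether the libraries keep the strand, so reads of the overlap cannot be assigned with certainty.

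Slc4a5 encodes a sodium bicarbonate cotransporter of the epithelium. It stood at 1.70, 34.7, 36.1, 8.61 and 15.7 CPM in 5xFAD females 1 to 5 and at 1.31, 0.0512, 0.469, 1.43 and 19.7 CPM in 5xFAD males 6 to 10. In CLU-KI females 1, 2, 4 and 5 it stood at 37.4, 28.7, 75.8 and 22.9 CPM, and in CLU-KI males 6 to 10 at 0.918, 8.46, 0, 11.7 and 31.7 CPM. It had no count in CLU-KI male 8, so CLU-KI female 4 was at least 547-fold higher than that library, taking 3 counts as the floor for a count of 0. In that library Kl held 409 counts.

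Aqp1, the water channel of the ventricular face of the epithelium, also occurs in erythrocytes. Its medians were 18.1 CPM in 5xFAD females (range 2.85 to 31.2), 1.36 in 5xFAD males (0.205 to 20.2), 29.0 in CLU-KI females (22.9 to 75.7) and 9.18 in CLU-KI males (0.338 to 22.1). Its lowest library was 5xFAD male 7, with 4 counts. The 4 CLU-KI females lay above all CLU-KI males, the closest pair being 22.9 and 22.1 CPM.

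Kcne2 encodes a small regulatory subunit of voltage-gated potassium channels, and Clic6 a protein of the chloride intracellular channel family. Both lie on chromosome 16, with 2 genes of the count table, Smim11 and Rcan1, between them in GENCODE M21. Kcne2 had medians of 14.1 CPM in 5xFAD females (range 3.39 to 37.9), 2.56 in 5xFAD males (0.417 to 19.9), 29.8 in CLU-KI females (21.4 to 60.7) and 10.95 in CLU-KI males (0.185 to 21.8). Clic6 had medians of 40.7 CPM (7.94 to 112), 5.32 (3.49 to 60.1), 100.3 (72.2 to 171) and 24.3 (1.62 to 84.6) in the same order of groups. For both genes the highest CLU-KI male lay above the lowest CLU-KI female, so these groups overlapped.

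Otx2 encodes a homeodomain transcription factor needed to form and maintain choroid plexus, from where the protein also passes into cerebrospinal fluid. Its medians were 12.7 CPM in 5xFAD females (range 2.35 to 22.1), 2.35 in 5xFAD males (0.574 to 13.1), 18.7 in CLU-KI females (15.9 to 41.5) and 7.27 in CLU-KI males (0.693 to 15.2). The lowest CLU-KI female stood just above the highest CLU-KI male. Otx2 overlaps its antisense gene Otx2os1, so the same limit on strand holds. Tmem72, a transmembrane protein gene, had medians of 34.4 CPM (11.5 to 77.8), 7.32 (4.80 to 37.3), 58.8 (29.6 to 84.8) and 14.7 (2.82 to 77.3) in the same order, and its CLU-KI groups overlapped.

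As a description only, the promoters were read for the core motif of OTX homeodomains, TAATCC, and for the TATA box motif TATAAA. Both strands of the whole promoter window that RefSeq gives around each start were read. Whether either motif bears on the levels of these genes was not tested. No promoter of these genes held both motifs. RefSeq promoters on GRCm38.p6 were matched for 6 members, Kl, Kcne2, Aqp1, Slc4a5, Otx2 and Tmem72, with 10 start sites in all. Ttr, Folr1, Clic6 and Sostdc1 had no match. TAATCC was in 1 of 10, at a start site of Otx2 itself, against 7.06% of all 32851 promoters. TATAAA was in 2 of 10, at Slc4a5 and at another start site of Otx2, against 13.6% of all promoters. The 250 bases before the start are printed for the members whose levels were most like Ttr, Slc4a5 and Kcne2, and for the Otx2 start with the OTX motif, 5′ to 3′ on the gene's strand, with matches to either motif in capitals.
Slc4a5 promoter, chr6:83237125-83237374, plus strand, with a reverse-strand TATAAA 127 bases before the start: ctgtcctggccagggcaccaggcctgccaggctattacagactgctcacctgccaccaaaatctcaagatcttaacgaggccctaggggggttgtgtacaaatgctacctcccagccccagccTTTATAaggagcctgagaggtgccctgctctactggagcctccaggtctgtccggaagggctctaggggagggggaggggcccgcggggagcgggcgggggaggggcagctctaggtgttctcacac
Kcne2 promoter, chr16:92292139-92292388, plus strand, with neither motif: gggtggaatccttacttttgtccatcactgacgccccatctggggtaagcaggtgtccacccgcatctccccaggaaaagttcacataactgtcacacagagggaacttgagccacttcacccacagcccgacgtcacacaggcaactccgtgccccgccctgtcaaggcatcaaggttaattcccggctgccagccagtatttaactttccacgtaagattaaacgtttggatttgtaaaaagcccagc
Otx2 promoter, chr14:48665110-48665359, minus strand, with a reverse-strand TAATCC 211 bases before the start: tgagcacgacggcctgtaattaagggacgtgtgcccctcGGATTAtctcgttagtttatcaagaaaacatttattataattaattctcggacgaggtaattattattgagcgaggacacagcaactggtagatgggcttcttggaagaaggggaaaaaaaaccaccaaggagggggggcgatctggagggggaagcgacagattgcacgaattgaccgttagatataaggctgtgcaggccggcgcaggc
A match is a match of letters only, and where none was found the letters are not in this window.

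The 10 genes moved as a block between libraries of the same group. After removing group means, the correlation with Ttr over 19 libraries, in order of Pearson r, was highest for Slc4a5 (Pearson r = 0.961, Spearman rho = 0.946) and Kcne2 (r = 0.948, rho = 0.963). By r it was lowest for Sostdc1 (r = 0.843, rho = 0.900) and Kl (r = 0.868, rho = 0.904). In between came Folr1 (r = 0.917, rho = 0.914), Otx2 (r = 0.904, rho = 0.956), Tmem72 (r = 0.876, rho = 0.893), Aqp1 (r = 0.876, rho = 0.870) and Clic6 (r = 0.872, rho = 0.874). By rho the order differed, with Kcne2 and Otx2 highest and Aqp1 and Clic6 lowest. All 9 passed by both measures, with permutation p of 1e-05 to 4e-05, where 1e-05 is the smallest the permutations can give, and adjusted p of 0.00319 to 0.0091 over 18203 genes. These p-values are approximate, since the permutations ran over all 19 libraries and take the spread as equal between groups. The SD of Ttr in log2 CPM was 0.83 in CLU-KI females and 3.62 in CLU-KI males. Of all genes, 0.736% passed by Pearson r. Without CLU-KI male 8 and 5xFAD male 7, the libraries farthest from the median of Ttr, r was 0.882 to 0.974 and rho 0.868 to 0.973, and the same 9 genes passed.

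**Figure D2:**
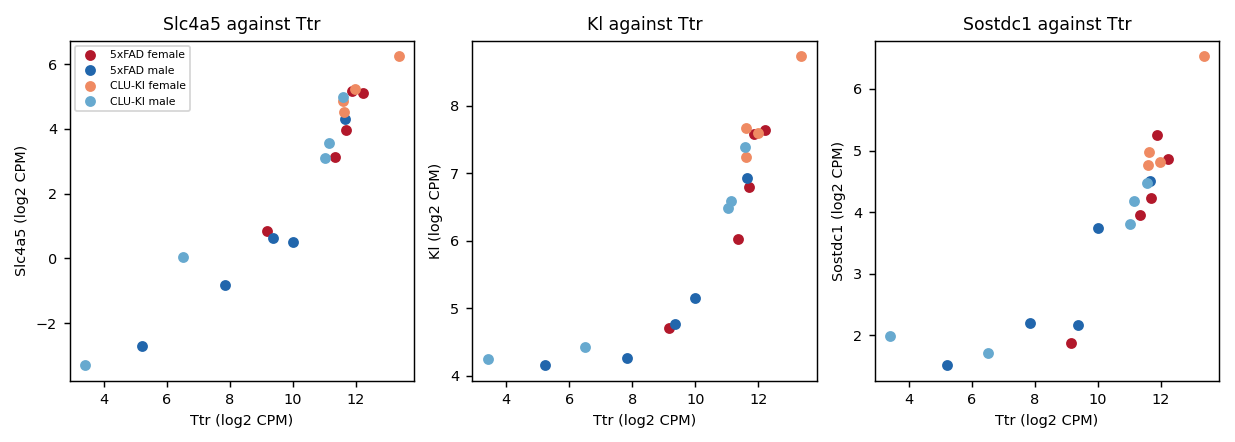
Slc4a5, Kl and Sostdc1 (vertical axes, log2 CPM) against Ttr (horizontal axes, log2 CPM), with 1 point per library and colours for the 4 groups. Slc4a5 falls along the whole range of Ttr to a library with 0 counts, while Kl stays near 4 log2 CPM and Sostdc1 near 2 log2 CPM in the libraries with least Ttr.

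Ranked by r against Ttr, Slc4a5 had rank 1 of 18203 genes, Kcne2 rank 4 and Folr1 rank 14, and the lowest placed member, Sostdc1, had rank 45. A list of 30 other tested choroid plexus epithelium genes moved with them. Of these, 24 passed by r. The list was chosen with earlier results of these data known, so it is not an independent check. The 20 highest ranks held 4 members and 12 genes of this list. Steap1, a STEAP family membrane protein gene (r = 0.961), Kcnj13, a potassium channel (r = 0.948), the tight junction gene Cldn2 (r = 0.936) and the keratin Krt8 (r = 0.935) were among them. Enpp2, which encodes autotaxin and is also made by oligodendrocytes, followed at r = 0.851. The 6 that did not pass were Lmx1a (r = 0.732), Spint2 (r = 0.701), Slc4a2 (r = 0.675), Car12 (r = 0.613), Slc29a4 (r = 0.589) and Cldn3 (r = 0.476), of which Lmx1a, Spint2 and Slc4a2 passed by rho.

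Outside both lists, the 10 genes most like Ttr (mean level 1 log2 CPM or more) were Prr32 (r = 0.945), Slc16a8 (r = 0.941), 2900040C04Rik (r = 0.895), Epn3 (r = 0.885), Wdr86 (r = 0.879), Tuba1c (r = 0.875), Eps8l2 (r = 0.868), Sfrp1 (r = 0.852), Steap2 (r = 0.849) and Zfp185 (r = 0.843). Slc16a8 encodes a lactate transporter, Epn3 an epsin of endocytosis, Tuba1c an alpha-tubulin and Sfrp1 a secreted Wnt antagonist. Prr32 had medians of 6.28 CPM in 5xFAD females, 0.563 in 5xFAD males, 11.2 in CLU-KI females and 3.22 in CLU-KI males, the same order of groups as Ttr. Clu, which choroid plexus epithelium also makes, showed no such pattern (r = -0.03, rho = 0.09, permutation p = 0.918 and 0.712).

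In a family of 10 relations over 19 libraries with group means removed, the mean level of the other choroid plexus list gave r = 0.919 and rho = 0.932 (permutation p = 1e-05 each, adjusted p = 1e-04). Ependyma, the ciliated lining of the ventricles, gave r = 0.528 and rho = 0.547 (permutation p = 0.0188 and 0.0174, adjusted p = 0.0939 and 0.0871), and 0.670 and 0.642 without the 2 farthest libraries (permutation p = 0.00295 and 0.00672, adjusted p = 0.0147 and 0.0336). Leptomeninges and fibroblasts gave r = 0.475 and rho = 0.449 (permutation p = 0.0405 and 0.0552, adjusted p = 0.105 and 0.138), and 0.510 and 0.338 without those libraries. The total count gave r = -0.474 and rho = -0.46 (permutation p = 0.042 and 0.0495, adjusted p = 0.105 and 0.138), and -0.32 and -0.21 without them. Over 19 libraries the other choroid plexus list, chosen with earlier results of these data known, passed after adjustment. Ependyma, leptomeninges and the total count did not. Without the 2 libraries ependyma passed as well, an adjustment added after the values had been seen.

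The other 6 relations were weaker. Endothelium gave r = 0.329, rho = 0.354, thalamus 0.122 and 0.256, mural cells 0.049 and -0.004, erythrocytes -0.14 and -0.17, long noncoding RNA -0.16 and -0.02, and hippocampal neurons -0.24 and -0.28. Their permutation p values ran from 0.138 to 0.991, and their adjusted p values from 0.276 to 0.991. Without the 2 farthest libraries r was 0.446, -0.06, 0.030, -0.20, -0.26 and -0.27 in the same order.

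Few genes of the hippocampus varied as much within a group. The SD of Ttr within groups was 2.36 on the log2 scale, against a median of 0.27 over all tested genes, and ranked 48 of 18204. Slc4a5 had an SD of 2.38 (rank 45), Aqp1 2.01 (rank 71), Kcne2 1.95 (rank 79) and Folr1 1.87 (rank 95). Clic6 followed at 1.63 (rank 134), Otx2 at 1.53 (rank 166), Tmem72 at 1.33 (rank 247), Sostdc1 at 1.21 (rank 352) and Kl at 1.16 (rank 402). All 10 had an SD of at least 1, as had 762 genes in all. The spread differed between groups: for Ttr the SD was 0.83 in CLU-KI females and 1.21 in 5xFAD females, against 2.43 in 5xFAD males and 3.62 in CLU-KI males. No test was made of this difference in spread.

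**Figure D3:**
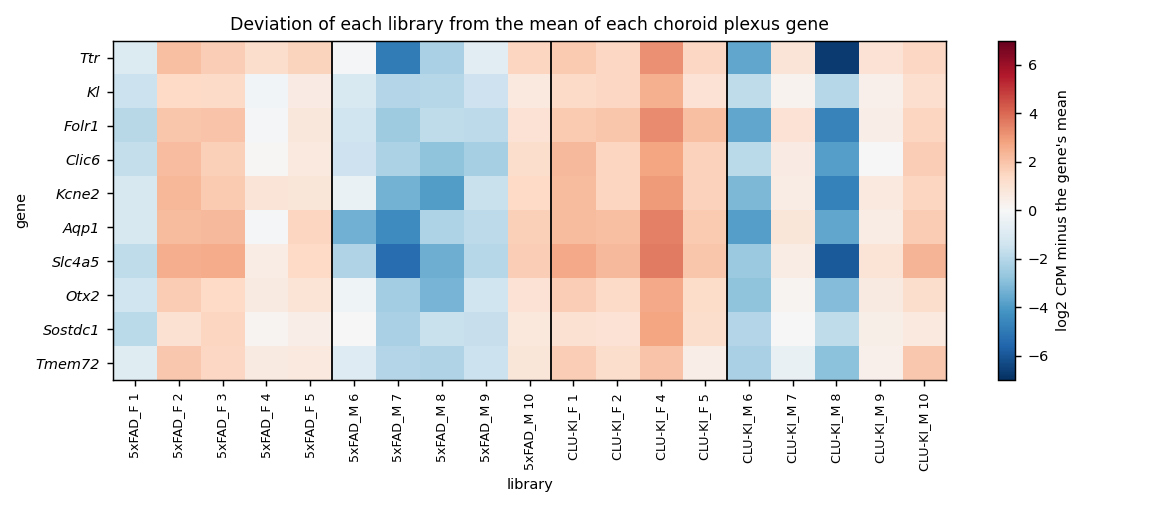
Deviation of each library from each gene's mean over 19 libraries (colour, log2 CPM), for the 10 genes (rows) and the libraries by group and number (columns, black lines between groups). Columns have nearly one colour: CLU-KI female 4 is red for all 10 genes, and 5xFAD males 7 and 8 and CLU-KI males 6 and 8 are blue for all 10.

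The genotype comparison asks whether the clusterin knock-in came with a different level of choroid plexus RNA. Every one of the 10 genes had a higher fitted level in CLU-KI animals, and no gene passed the test. Over both sexes the log2 change was 0.66 for Ttr (SE 0.80, approximate 95% interval -1.04 to 2.36, edgeR adjusted p = 0.805) and 0.93 for Kl (SE 0.50, interval -0.12 to 1.98, adjusted p = 0.478). The largest value was 1.17 for Folr1 (SE 0.68, interval -0.28 to 2.62, adjusted p = 0.526). The median over the 10 genes was 0.85, against 0.00 over all tested genes. With edgeR 0 of 10 members passed, against 0.022% of all genes, and 0 had an unadjusted p under 0.05, against 11.9% of all genes. DESeq2, and limma on the deposited normalized counts, also called 0 of 10. Since the genes move together, 10 values of 1 sign are not 10 independent observations.

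The rest of the 10 genes behaved likewise. The log2 change over both sexes was 1.14 for Slc4a5, 1.00 for Aqp1, 0.98 for Clic6, 0.78 for Kcne2, 0.75 for Otx2, 0.72 for Sostdc1 and 0.70 for Tmem72, with SEs of 0.51 to 0.83 and edgeR adjusted p of 0.599 to 0.713. Single libraries moved these values. Without 5xFAD male 10 the change was 1.23 for Ttr, 1.70 for Clic6, 1.40 for Kcne2, 1.94 for Aqp1, 2.09 for Slc4a5, 1.21 for Otx2 and 1.11 for Tmem72. Without CLU-KI male 10 it was 0.60 for Clic6, 0.51 for Kcne2, 0.69 for Slc4a5 and 0.18 for Tmem72, and without CLU-KI female 4 it was 0.40 for Ttr and 0.41 for Sostdc1. On the mean of log2 CPM, which gives low libraries more weight than the fit of counts does, the Ttr difference was 0.37 (p = 0.732, two-sided, exact permutation with sex as stratum). Leaving out 1 library at a time gave -0.05 without 5xFAD male 7, the only negative value, to 1.06 without CLU-KI male 8, with p from 0.232 to 0.969.

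Other choroid plexus epithelium genes did the same. All 30 tested genes of the list had a change above 0 (median 0.69) and 0 passed. The 6 with the lowest p were Cab39l, a scaffold of kinase signalling (0.56, adjusted p = 0.328), the monoamine transporter Slc29a4 (0.35, adjusted p = 0.408), the anion exchanger Slc4a2 (0.47, adjusted p = 0.427), the homeobox gene Msx1 (0.67, adjusted p = 0.446), the sugar transporter Slc2a12 (0.84, adjusted p = 0.463) and the collagen gene Col8a1 (1.12, adjusted p = 0.480), all from edgeR. Other tissue markers also had values above 0. The median was 0.59 for 13 leptomeningeal and fibroblast genes (13 above 0), 0.64 for 5 erythrocyte genes (5 above 0), 0.32 for 12 ependymal genes (12 above 0) and 0.18 for 8 hippocampal neuron genes (8 above 0), while 8 long noncoding RNAs had a median of -0.76 (0 above 0). The medians were 0.18 for 7 endothelial genes (7 above 0), 0.19 for 6 mural genes (6 above 0) and 0.05 for 8 thalamic genes (6 above 0). In all of these lists 0 genes passed. The summed level of the ependymal list was 17.3 to 110 CPM in 5xFAD females, 24.5 to 65.3 in 5xFAD males, 46.4 to 153 in CLU-KI females and 15.9 to 68.1 in CLU-KI males. The part of these tissues in the choroid plexus values was not tested.

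Split by sex, the genotype difference was no clearer. In females, where 5.56% of all genes passed, 0 of 10 members did, and 0 had an unadjusted p under 0.05, against 22.1% of all genes. The log2 change was 0.79 for Ttr (SE 1.21, interval -1.77 to 3.36, edgeR adjusted p = 0.756) and 1.34 for Folr1 (SE 0.99, interval -0.77 to 3.44, adjusted p = 0.462), and the median over the 10 genes was 1.05. Without CLU-KI female 4 the change was 0.21 for Ttr and 0.88 for Folr1, and without 5xFAD female 1 it was 0.51 for Ttr. In females 3 of 5 erythrocyte genes and the endothelial gene Slc2a1, a glucose transporter (log2 change 0.46, edgeR adjusted p = 0.0304), rose and 7 of 8 long noncoding RNAs fell past the threshold. All of these calls were lost without CLU-KI female 2 or 4 and with a replicate block, where 0 of all genes passed. With the mean level of the same 8 noncoding RNAs as a covariate 0 of all genes passed too, but for these RNAs that loss is built in. The covariate did not overlap between the genotypes in females, so this fit cannot tell the 2 apart and does not test the female calls. In it the female median over the 10 genes was -0.27, again with 0 called, and no direction is read from that value. In males 0 of 10 members passed, against 0% of all genes, and 0 had an unadjusted p under 0.05, against 6.52% of all genes. There Ttr had a log2 change of 0.54 (SE 1.15, interval -1.90 to 2.98, adjusted p = 0.957) and Slc4a5 one of 1.20 (SE 1.22, interval -1.39 to 3.79, adjusted p = 0.902). Without CLU-KI male 10 they were 0.091 and 0.17, and without 5xFAD male 10 they were 1.64 and 3.71. Ttr ran within these bounds when any of the other libraries was left out, with 0.84 without CLU-KI male 6, 0.86 without CLU-KI male 8, 0.34 without CLU-KI male 9, 0.23 without 5xFAD male 7 and 0.28 without 5xFAD male 8. The direction for Ttr in males depended on the measure. Its mean log2 CPM was 8.73 in CLU-KI males and 8.81 in 5xFAD males. The male change of Ttr was -0.059 with limma and -0.32 with the replicate block.

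The difference between the sexes in their response to the knock-in was tested directly and did not pass for any member, against 0.308% of all genes. The interaction, female change minus male change, was 0.25 for Ttr (SE 1.66, interval -3.29 to 3.79, edgeR adjusted p = 0.957). It ran from -0.51 for Tmem72 to 0.74 for Sostdc1, with 0 of 10 below an unadjusted p of 0.05, against 17.7% of all genes. Its direction was not stable. With the noncoding RNA covariate the median over the 10 genes was -1.75, in place of 0.23, and Ttr stood at -1.80. These values carry the same limit, since that covariate did not overlap between the genotypes in females. Leaving out 1 library turned the sign for 9 of 10 members, and for Ttr gave -0.82 to 0.72.

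**Figure D4:**
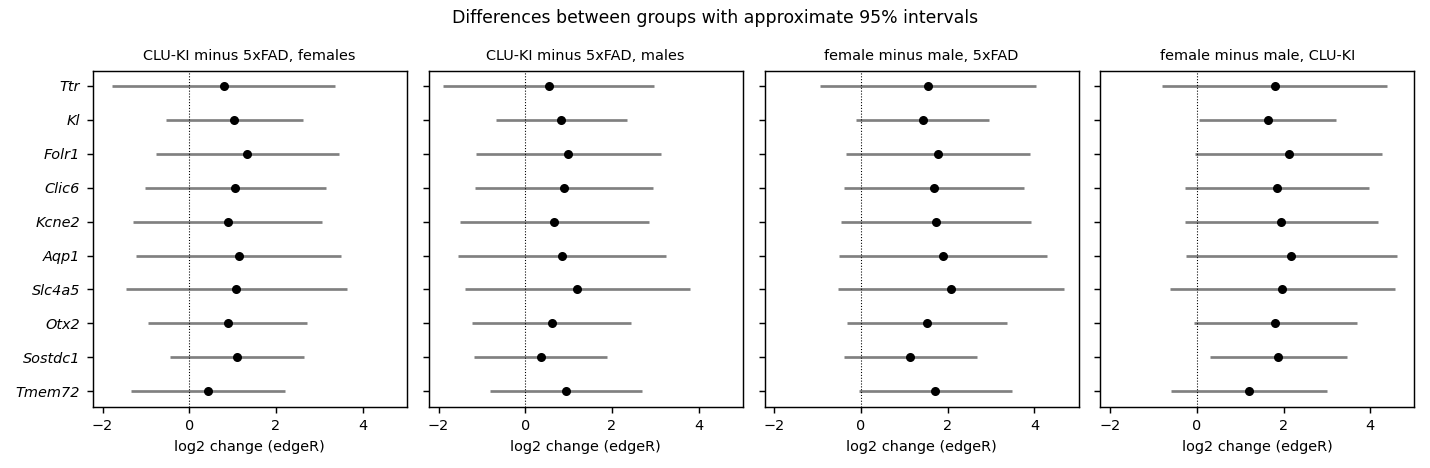
Log2 change of each gene (points) with its approximate 95% interval (lines) for the genotype difference within each sex and the sex difference within each genotype, from edgeR. All 40 points lie to the right of 0, and the intervals of Kl and Sostdc1 between CLU-KI females and males are the only ones that leave out 0.

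In the edgeR fit the medians over the 10 genes were higher for sex than for genotype. Other scalings and limma kept this order, and with the noncoding RNA covariate it changed for sex in CLU-KI animals. In 5xFAD animals females exceeded males by a log2 difference of 1.54 for Ttr (SE 1.17, interval -0.94 to 4.03, edgeR adjusted p = 0.652) and by 2.08 for Slc4a5 (SE 1.22, interval -0.52 to 4.69, adjusted p = 0.541). In CLU-KI animals the difference was 1.80 for Ttr (SE 1.22, interval -0.80 to 4.39, adjusted p = 0.564) and 1.88 for Sostdc1 (SE 0.75, interval 0.29 to 3.46, adjusted p = 0.252). The medians over the 10 genes were 1.70 and 1.86, against 0.01 and -0.01 over all tested genes. With the noncoding RNA covariate they were 2.39 and 0.57, beside 0.75 for genotype over both sexes and 1.33 for genotype in males. For sex over both genotypes, a comparison added later, the median with that covariate was 1.65. In CLU-KI animals the covariate did not overlap between the sexes, at 6.16 to 7.08 log2 CPM in females and 7.12 to 8.50 in males. With limma the medians in 5xFAD and CLU-KI animals were 1.93 and 3.03, beside 0.86 for genotype over both sexes. Without 5xFAD male 10 the difference in 5xFAD animals was 1.77 to 4.60 over the 10 genes, with 2.65 for Ttr, and without CLU-KI male 10 that in CLU-KI animals was 3.02 for Slc4a5 and 2.30 for Tmem72. In both genotypes 0 of 10 members passed, against 0.0385% and 0.0494% of all genes. An unadjusted p under 0.05 was found for 0 of 10 in 5xFAD animals, against 11.1% of all genes. In CLU-KI animals it was found for 2 of 10, Kl and Sostdc1, against 14.4%. By unadjusted p, DESeq2 gave 2 of 10 in 5xFAD animals, against 12% of all genes, and 5 of 10 in CLU-KI animals, against 15.7%. On the same count limma gave 2 of 10, against 7.43%, and 10 of 10, against 13.2%. The genes move together, so such counts do not add up separate observations.

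In CLU-KI animals, females lay above males without overlap for 5 of 10 members, against 1.51% of all genes. These were Ttr, Folr1, Aqp1, Otx2 and Sostdc1. Between 5xFAD females and males this held for 0 of 10 members, against 1.05% of all genes. Nor did CLU-KI animals lie above 5xFAD animals without overlap for any member, in females against 3.86% of all genes and in males against 0.527%. The CLU-KI female and CLU-KI male groups hold 4 and 5 libraries, and the 5 genes share the same libraries and follow the same order, so they do not count as 5 separate observations.

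A comparison of the sexes over both genotypes was added after these values had been seen. Females exceeded males by 1.66 for Ttr (SE 0.82, interval -0.07 to 3.39, edgeR adjusted p = 0.806), 1.52 for Kl (SE 0.50, interval 0.46 to 2.58, adjusted p = 0.455), 1.94 for Folr1 (SE 0.69, interval 0.48 to 3.41, adjusted p = 0.532) and 1.496 for Sostdc1 (SE 0.51, interval 0.42 to 2.57, adjusted p = 0.486). The members ran from 1.47 to 2.03. No member passed over all genes with edgeR, against 0.0604% of all genes. In the same fit 9 of 10 had an unadjusted p under 0.05, against 6.38% of all genes, with Ttr the exception (edgeR unadjusted p = 0.0587, an approximation from the model fitted across all genes). By unadjusted p, DESeq2 and limma each gave 10 of 10, against 6.86% and 5.24% of all genes. Since the 10 genes move together across libraries, these counts are not counts of separate observations. For Ttr alone, the difference in mean log2 CPM was 2.90 (p = 0.0100, two-sided, exact permutation with genotype as stratum). It was 2.28 to 3.28 with 1 library left out, with p from 0.00246 to 0.0261. This test was also chosen after the values had been seen.

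The same comparison moved other lists by less. The 30 other choroid plexus genes had a median of 1.60, all above 0 and 0 called. Ependymal genes had a median of 0.76 (12 of 12 above 0), leptomeningeal and fibroblast genes 0.13 (8 of 13), thalamic genes 0.15 (7 of 8), endothelial genes 0.04 (5 of 7), mural genes -0.03 (1 of 6), erythrocyte genes 0.02 (3 of 5) and hippocampal neuron genes 0.03 (5 of 8). Long noncoding RNAs had a median of -0.38 (0 of 8 above 0). None of these genes passed over all genes, and whether the lists differ from each other was not tested.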

How the data were processed

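Bulk RNA sequencing of 19 hippocampal libraries was analysed at the gene level, grouped by the genotype and sex in the titles. The tools that the submitters' processing notes name are Salmon, FastQC, Seurat and DESeq2, on build mm39, with neither version nor role given. The authors deposited estimated counts as whole numbers, which were the input of all main tests. The authors also deposited normalized counts, a signal scaled by factors that differ between genes and libraries, used in 1 alternative as log2 of the value plus 1. The deposited variance-stabilized values were not used. Depth was 17278276 to 25200966 counts per library. Because nothing says that libraries came from separate litters, p-values measure the spread between these animals.

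Symbols, chromosomes and exon lengths came from GENCODE M21 on GRCm38 (20023 of 20655 IDs), and promoters from RefSeq on GRCm38.p6. Tests across genes used edgeR 4.0.16 under R 4.3.3 (scaling by TMM, filterByExpr with a minimum of 10 counts, robust quasi-likelihood F-test), leaving 18204 genes, with Benjamini-Hochberg adjustment and a threshold of 0.05. Effects over both sexes or both genotypes came from a fit with genotype and sex as terms, and the others from a model with 4 group means. Intervals are the estimate plus or minus the t quantile times an SE derived from F. Correlations used log2 CPM (prior count 2), group means removed and 100000 permutations over all 19 libraries in Python 3.11.15. Such permutations take the spread as equal between groups, so the p-values of all correlations with Ttr are approximate. On simulated counts with 200 changed genes among 18204, with a dispersion of 0.05, the fit recovered 98% of 2-fold changes for genotype over both sexes, 65% in females and 85% in males, and 100% of 4-fold changes in each. The members varied more than this dispersion gives, so these shares do not apply to them. Named genes are the 10 members, the 6 other choroid plexus genes with the lowest p for genotype, the 10 genes most like Ttr and Clu, and further listed genes were chosen after their values were seen. The members and lists were chosen with earlier results of these data known. Of the listed genes, 1 (Ecrg4) had no match under that symbol and was counted under 1500015O10Rik. Alternatives were DESeq2 1.42.0, limma 3.58.1, other scalings and filters, a noncoding RNA covariate, a replicate block and leaving out each library.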

Additional observations from a re-analysis of the deposited data

Results flagged for a closer look

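In each group of 4 or 5 libraries, the highest or lowest value of each gene was set against the rest, as the gap to its nearest neighbour over the range of the group. A library was flagged as far where this gap passed 0.829 of the range in a group of 4, or 0.71 in a group of 5. Of 40 such sets, 3 held a flagged library, which is near the share of about 1 in 20 that chance alone gives. Ttr in 5xFAD female 1 was 9.17 log2 CPM, against 11.3 to 12.2 in the other 4 females, a gap of 0.712 of the range. Folr1 in CLU-KI female 4 was 6.40 log2 CPM, against 4.94 to 5.17 in the other 3, a gap of 0.841. Sostdc1 in the same library was 6.53 log2 CPM, against 4.77 to 4.99, a gap of 0.880. The genes are not independent, since they follow each other across libraries.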

How the results depend on the processing

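No choroid plexus member was called in any comparison under any alternative run, at most 27 per comparison. Of 1860 member values under alternatives, 69 changed sign and none passed the threshold. The causes were not tested. The noncoding RNA covariate did not overlap between the genotypes in females, or between the sexes in CLU-KI animals.

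With the noncoding RNA covariate, female genotype changes were -0.59 for Ttr, -0.11 for Kl, -0.15 for Folr1, -0.35 for Clic6, -0.38 for Kcne2, -1.24 for Aqp1, -0.96 for Slc4a5, -0.080 for Otx2 and -0.19 for Tmem72. Interactions were then -1.80 for Ttr, -1.44 for Kl, -1.86 for Folr1, -2.10 for Clic6, -1.71 for Kcne2, -3.68 for Aqp1, -1.12 for Otx2 and -0.47 for Sostdc1, and sex effects in CLU-KI -0.16 for Aqp1 and -0.14 for Slc4a5. With limma on the deposited normalized counts, male genotype changes were -0.059 for Ttr and -0.048 for Folr1, and interactions 0.52 for Slc4a5 and 0.13 for Tmem72. With library size only, the interaction was -0.035 for Clic6, and the median interaction over all genes was -0.15 in place of -0.02.

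Leaving out 1 library moved interactions over -0.82 to 0.72 for Ttr, -0.61 to 0.72 for Kl, -0.85 to 0.91 for Folr1, -1.36 to 1.03 for Clic6, -1.14 to 0.85 for Kcne2, -1.99 to 1.04 for Aqp1, -2.60 to 0.93 for Slc4a5, -0.68 to 0.86 for Otx2 and -1.40 to 0.58 for Tmem72. The male change of Tmem72 ran from -0.12 to 1.85, and the Ttr permutation difference between genotypes from -0.050 to 1.06.

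Counts of all genes called moved more. The genotype effect (4 genes) gave 106 with DESeq2, 1 with library size only, 1 with limma, 2 with the covariate, and 1 to 127 with a library left out. In females (1013) it gave 1810 with DESeq2, 0 with the covariate and 0 to 1334 with a library left out, and in males (0) 19 with DESeq2, 1 with library size only and 0 to 2. The interaction (56) gave 766 with DESeq2, 402 with library size only, 0 with DESeq2 size factors, without the low-count filter, with limma and with the covariate, and 0 to 489 with a library left out. Counts moved by over 1.5 times without these libraries. For genotype the count was 127 without 5xFAD male 10, 31 without CLU-KI female 1 and 19 without CLU-KI male 10. It was 9 with 5xFAD female 2 left out, 2 with 5xFAD female 4 left out, and 1 without any of CLU-KI females 4 and 5, CLU-KI males 7, 8 and 9, 5xFAD female 1 and 5xFAD males 6 and 8. In females the count was 0 without CLU-KI female 2 or 4, 364 without 5xFAD female 1 and 439 without 5xFAD female 4. In males it was 2 without 5xFAD female 1 and 1 without 5xFAD female 2. For the interaction it was 489 without CLU-KI male 7, 266 without CLU-KI female 5, 190 without 5xFAD male 6, 138 without 5xFAD male 7, 120 without CLU-KI male 8 and 0 without any other library. Sex effects gave 47 in 5xFAD (7) and 510 in CLU-KI (9) with DESeq2, 24 in CLU-KI with limma, and 76 over both genotypes (11) with DESeq2. Leaving out a library gave 8 to 340 in CLU-KI (340 without CLU-KI male 7, 324 without 5xFAD male 10, 44 without CLU-KI female 5, 14 without 5xFAD male 6) and 8 to 34 over both (34 without 5xFAD male 10, 23 without 5xFAD female 1, 22 without CLU-KI male 10).

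Titles share numbers across genotypes, and deviations of same-numbered libraries over all genes correlated at only -0.20 to 0.12. These values show no pairing by number, but cannot exclude one that touches few genes. With the number as a replicate block, 0 genes passed for genotype over both sexes, 0 in females and 0 for the interaction. Under the block Ttr changed by -0.32 in males, and interactions were 0.23 for Slc4a5 and 0.17 for Tmem72.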
